A study of Homo sapiens with 4 samples.

Results

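The homeobox transcription factors of the HOX, LIM-homeobox, ONECUT, POU and SIX-type families were followed in NCI-H209 and Lu139, a pair of established human small cell lung cancer lines. They were taken from the array's annotation by symbol: HOXA to HOXD, LHX, ONECUT and the SIX-family symbols with a number, POU with its class number, and ISL1, ISL2, LMX1A and LMX1B, without antisense transcripts and without POU2F3. This gave 109 probe sets of 62 genes, out of 19775 genes with a value. They comprise 1 HOXA gene (HOXA2), 10 HOXB, 9 HOXC, 8 HOXD, 12 LIM-homeobox, 3 ONECUT, 14 POU and 5 SIX-family genes. Other genes of these families are not analysed here. The cells of each line were electroporated with siNTC, a control siRNA, or siTTF-1, an siRNA to TTF-1, the protein made from NKX2-1, and total RNA of each of the 4 groups was hybridised to 1 Affymetrix array. The sources used here give neither the siRNA sequences nor the time between electroporation and RNA extraction. Values are intensities of probe sets, not log-transformed, and a gene is represented by its brightest probe set.

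Homeobox genes encode transcription factors that bind DNA through a homeodomain and set regional and cell-type identity during development. The HOX genes lie in clusters whose gene order follows the order of their expression along the body axis, and their proteins bind DNA together with TALE partners such as PBX and MEIS proteins. LIM-homeodomain proteins such as ISL1 and LHX2 specify neurons, pituitary, heart and pancreatic islet cells and work through the adaptor LDB1. POU factors pair a POU-specific domain with a homeodomain, ONECUT factors pair one with a cut domain, and SIX-family proteins act with EYA co-activators and DACH co-factors in eye, ear, kidney and muscle development. TTF-1 is itself a homeodomain protein, of the NK2 class, that directs lung and thyroid development.

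The targeted transcript, NKX2-1, had intensities of 596 and 243 on the control and knockdown array of NCI-H209 and of 780 and 461 on those of Lu139, so 40.7% and 59.1% of control remained. Its fold change, given throughout as the difference of log2(value + 18.7) between siTTF-1 and siNTC, was -1.23 and -0.74. Its other probe set gave -0.56 and -0.80. The median intensity of all probe sets was 56.6 and 57.7 in NCI-H209 against 48.4 and 49.6 in Lu139. Of 10 neuroendocrine small cell lung cancer markers, 8 had a value and all 8 lay above the expression limit in both lines. Their summed intensity was 27441 and 22986 in NCI-H209 against 14723 and 15793 in Lu139. Of the leukocyte, fibroblast and endothelial markers, PTPRC lay between 9.78 and 11.3, COL3A1 between 17.9 and 21.0, and CDH5 between 9.63 and 11.0. Above the limit in both lines were CD3E, 1 of 3 leukocyte markers with a value, COL1A1 and DCN, 2 of 4 fibroblast markers, and PECAM1 and VWF, 2 of 3 endothelial markers. With 1 array per group, a difference within a line has no replicate and no test, and so few arrays limit how precise any value is. A lower transcript level in a line and fewer cells that carry the transcript cannot be told apart in such bulk RNA.

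A gene was taken as expressed in a line where its mean over both arrays of that line exceeded an intensity of 37.0, the 40th percentile over probe sets. By this limit 47 of the 62 homeobox genes were expressed in NCI-H209 (75.8%, against 74% of all genes) and 39 in Lu139 (62.9%, against 70.8% of all genes). Of them, 36 were above the limit in both lines. The 12 genes below it in both lines were HOXA2, HOXB13, HOXC10, HOXC12, HOXC13, HOXD12, LMX1A, ONECUT1, POU1F1, POU3F1, POU3F4 and POU4F3, with intensities from 4.84 to 31.9. An intensity below the limit is array background or near it and does not show that a transcript is absent. A value above it does not by itself show expression either. CD3E, from 63.7 to 88.6, and VWF, from 61.4 to 75.5, were above it in both lines, as were COL1A1, DCN and PECAM1. The word expressed is used here only for a gene above the limit, and dim genes in that range stay uncertain.

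After siTTF-1, the homeobox genes that were lower by at least 1.5-fold were in NCI-H209 nearly all from the middle of the HOXB cluster. They were HOXB4, HOXB6, HOXB7 and HOXB8, together with HOXC9, so 5 of the 47 expressed homeobox genes (10.6%), against 3.52% of all expressed genes. None was higher by that much, against 1.09% of all genes. HOXB6 and HOXB8 were lower by at least 2-fold, against 0.649% of all genes. In Lu139 only ISL1 of the 39 expressed homeobox genes was lower by 1.5-fold (2.56%, against 0.936% of all genes), none was higher (0.193% of all genes), and none was lower by 2-fold (0.0429% of all genes). By any amount, 31 of 47 were lower in NCI-H209 (66%, against 47.3% of all genes) and 14 of 39 in Lu139 (35.9%, against 40.7%). The median fold change (log2) of the expressed homeobox genes was -0.10 in NCI-H209 against 0.04 in Lu139, and that of all expressed genes was 0.01 and 0.03. The spread of the fold change over all expressed genes was 0.274 (SD) in NCI-H209 and 0.189 in Lu139.

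Across the lines, the siRNA effect was tested with limma on all 14547 genes above the limit over the 4 arrays, with line as a term, and p-values were adjusted over all of them. At an adjusted p under 0.05 no gene was called, 0% lower and 0% higher, and so none of the 46 homeobox genes tested. Their smallest adjusted p was 0.149, for HOXB7. At an unadjusted limma p under 0.05, 8 of the 46 were lower (17.4%, against 9.25% of all genes): HOXB2, HOXB4, HOXB6, HOXB7, HOXB8, HOXC6, SIX3 and POU4F1. LHX3 and HOXC11 were higher (4.35%, against 7.23%). Only the 2 lines replicate the siRNA effect, and nothing in the labels says that the arrays of a line came from separate cultures. The spread behind the p-values is therefore how far the 2 lines disagree in their siRNA change, with 1 residual degree of freedom. The fit draws it towards a spread estimated over all genes, with 5.91 prior degrees of freedom. It is not a spread between replicates, and whether it is biological or technical cannot be told apart.

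The lines themselves were compared with the line term of the same fit. It counts the siNTC and siTTF-1 arrays of a line as its 2 values, though they differ in siRNA. The limma p-values and intervals between lines rest on the spread described for the siRNA effect, with 1 residual degree of freedom. They do not measure a spread between separate cultures of a line, so a small limma p between lines does not stand for replicated cultures. At a limma adjusted p under 0.05 and at least 2-fold, 15 of the 46 homeobox genes tested were lower in Lu139 than in NCI-H209 (32.6%, against 20.2% of all genes tested) and 4 were higher (8.7%, against 5.4%). Of the 22 HOX genes tested, 12 were lower in Lu139 and 1, HOXD4, was higher. The other 24 homeobox genes split evenly, with 3 lower and 3 higher. Of the 19 called, 14 were above the limit in both lines. HOXB6, HOXB8 and HOXC9 were above it in NCI-H209 only and POU3F3 and POU4F2 in Lu139 only, so those 5 entered the test through the line where they are high and had to differ. Differences between lines are Lu139 minus NCI-H209 in mean log2(value + 18.7), and the folds between lines are taken from them. The 18.7 added makes such a fold smaller than the ratio of the intensities printed beside it, most of all where a line is dim. The median difference of all genes tested was -0.28, and it became 0.04 after quantile normalization over the 4 arrays. With that scaling 13 homeobox genes were lower in Lu139 and 7 higher (11.9% and 10.3% of all genes), and of the HOX genes 11 were lower and 2 higher. All of those 13 lower and 4 of the 7 higher had the same call without it. HOXB9 and LHX2 lost theirs at -0.82 and -0.76, and HOXB3, LHX6 and ONECUT2 gained one at 1.45, 1.34 and 1.32. The share of calls that were lower in Lu139 was 78.9% of the called homeobox genes without that scaling and 65% with it, and 78.9% and 53.8% of all called genes. The sources used here do not say whether the lines were scaled together, and line and hybridisation batch cannot be told apart.

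**Figure D1:**
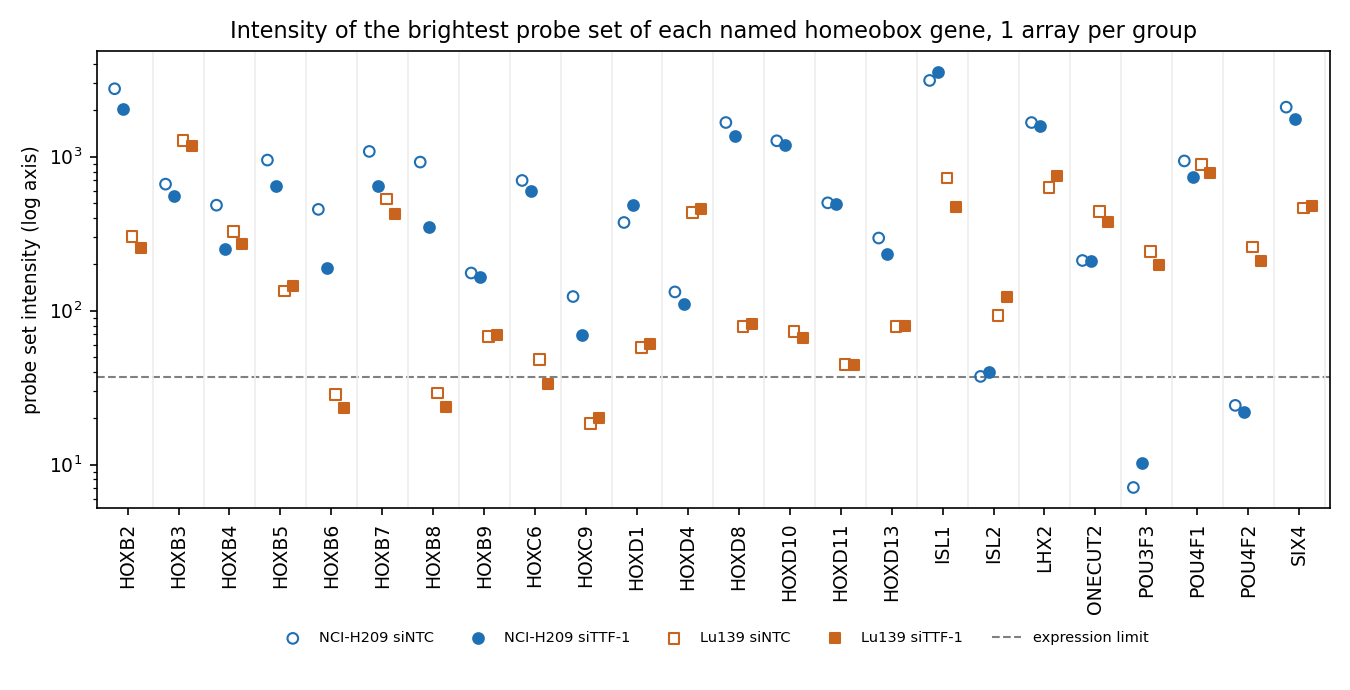
Intensity (log axis) of the brightest probe set of the 24 homeobox genes given in full, with 1 point per array: circles for NCI-H209, squares for Lu139, open for siNTC and filled for siTTF-1, and the dashed line at the expression limit of 37.0. HOXD8, HOXD10 and HOXC6 lie far lower in Lu139 than in NCI-H209, POU3F3 and POU4F2 far higher, and the open and filled symbols of a line lie furthest apart for HOXB8 and HOXB6 in NCI-H209.

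In the HOXB cluster, 8 of 9 expressed genes were lower after siTTF-1 in NCI-H209 against 4 of 7 in Lu139, where 47.3% and 40.7% of all expressed genes were. HOXB4, HOXB6, HOXB7 and HOXB8 were past 1.5-fold in NCI-H209 and no HOXB gene was in Lu139. The median fold change (log2) of the expressed HOXB genes was -0.55 in NCI-H209 against -0.11 in Lu139. HOXB genes pattern the hindbrain, neck and thorax, and several of them are expressed in lung mesenchyme and in blood progenitors. The anterior genes come first here.

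HOXB1, which marks a hindbrain segment, was dim, at 44.9 and 47.9 in NCI-H209 against 58.2 and 60.7 in Lu139. HOXB2, a regulator of hindbrain segments and facial motor neurons, had 2759 on the siNTC array and 2033 on the siTTF-1 array of NCI-H209, and 303 and 255 in Lu139. Both siTTF-1 arrays were below their controls, and the lines did not overlap. The log2 fold change was -0.44 in NCI-H209 against -0.24 in Lu139, with a mean of -0.34 ± 0.14 (SD over 2 lines) and a limma adjusted p of 0.206. HOXB2 was 8.04-fold higher in NCI-H209 than in Lu139 (log2 difference -3.01, limma 95% interval -3.25 to -2.76, limma adjusted p = 7.65e-07). HOXB3, its neighbour, ran the other way between lines. It had 662 and 557 in NCI-H209 against 1274 and 1179 in Lu139, 1.99-fold higher in Lu139 and so just short of 2-fold (log2 difference 0.99, interval 0.76 to 1.22, limma adjusted p = 8.5e-05). Its dimmer probe set ran the same way between lines, with 52.6 and 48.2, and 148 and 154. The fold change of HOXB3 after siTTF-1 was -0.24 and -0.11.

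HOXB4, a factor best known from the expansion of blood stem cells, had 484 and 251 in NCI-H209 against 327 and 271 in Lu139. The siTTF-1 array of NCI-H209 was the lowest of the 4, and the ranges of the lines overlapped. Of control, 51.8% remained in NCI-H209 and 82.9% in Lu139. The log2 fold changes were -0.90 and -0.25, with a mean of -0.58 ± 0.46 and a limma interval from -0.95 to -0.20 (limma adjusted p = 0.180). Of 14632 expressed genes in NCI-H209, HOXB4 ranked 140 from the lowest fold change. HOXB5, which is active in embryonic lung and gut mesenchyme, had 950 and 640 in NCI-H209 against 134 and 145 in Lu139. Its fold change was -0.55 in NCI-H209, just short of 1.5-fold, and 0.10 in Lu139. Its other probe set had 900 and 572, and 117 and 122, with fold changes of -0.64 and 0.05. HOXB5 was 5.05-fold higher in NCI-H209 than in Lu139 (limma adjusted p = 1.4e-05).

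HOXB6 had 454 on the siNTC array and 189 on the siTTF-1 array of NCI-H209, and 28.4 and 23.4 in Lu139, where both arrays lay below the limit. The share of control left in NCI-H209 was 41.7%, a log2 fold change of -1.19. In Lu139 the change was -0.16, between background values, so the mean was -0.67 ± 0.72 with a limma adjusted p of 0.217. With both arrays of Lu139 below the limit the difference between lines is a bound, and HOXB6 was at least 5.63-fold higher in NCI-H209. Such bounds set the mean of the brighter line against the expression limit, on the log2 scale of the fold changes. The other HOXB6 probe set lay near background on all 4 arrays, from 12.9 to 15.6, and the mean of both probe sets gave -0.61 in NCI-H209. HOXB7, which is often raised in carcinomas, was bright in both lines, with 1081 and 643 in NCI-H209 against 532 and 425 in Lu139. Both siTTF-1 arrays were below their controls, at 59.5% and 79.9%. The log2 fold changes were -0.73 and -0.31, with a mean of -0.52 ± 0.30 and a limma interval from -0.82 to -0.22 (limma adjusted p = 0.149). All 3 of its probe sets were lower in both lines, the other two with changes of -0.72 and -0.68 in NCI-H209 against -0.37 and -0.15 in Lu139. HOXB7 was the member of the cluster with the lowest fold change in Lu139, where it ranked 680 of 13996 genes. Its level was lower in Lu139 by less than 2-fold (log2 difference -0.79, limma adjusted p = 0.00108).

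HOXB8, a regulator of myeloid progenitors and of spinal sensory circuits, had the largest change within a line of the homeobox genes. It had 921 and 348 in NCI-H209, where 37.8% of control remained, and 29.2 and 23.8 in Lu139, below the limit. The log2 fold change of -1.36 in NCI-H209 ranked 29 of 14632 genes from the lowest, and with -0.17 in Lu139 the mean was -0.77 ± 0.84 (limma adjusted p = 0.217). Its dimmer probe set had 74.0 and 42.1 in NCI-H209 against 28.5 and 26.1 in Lu139, a change of -0.61 and -0.08. Between lines HOXB8 was at least 10.5-fold higher in NCI-H209. HOXB9, expressed in the embryonic thorax, had 175 and 166 in NCI-H209 against 67.9 and 69.8 in Lu139, with fold changes of -0.07 and 0.03. Its 2 probe sets disagreed in NCI-H209, since the other had 165 and 112, a change of -0.49. In Lu139 that probe set had 79.2 and 81.1. HOXB9 was lower in Lu139 on the line term (log2 difference -1.11, limma adjusted p = 4.14e-05).

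**Figure D2:**
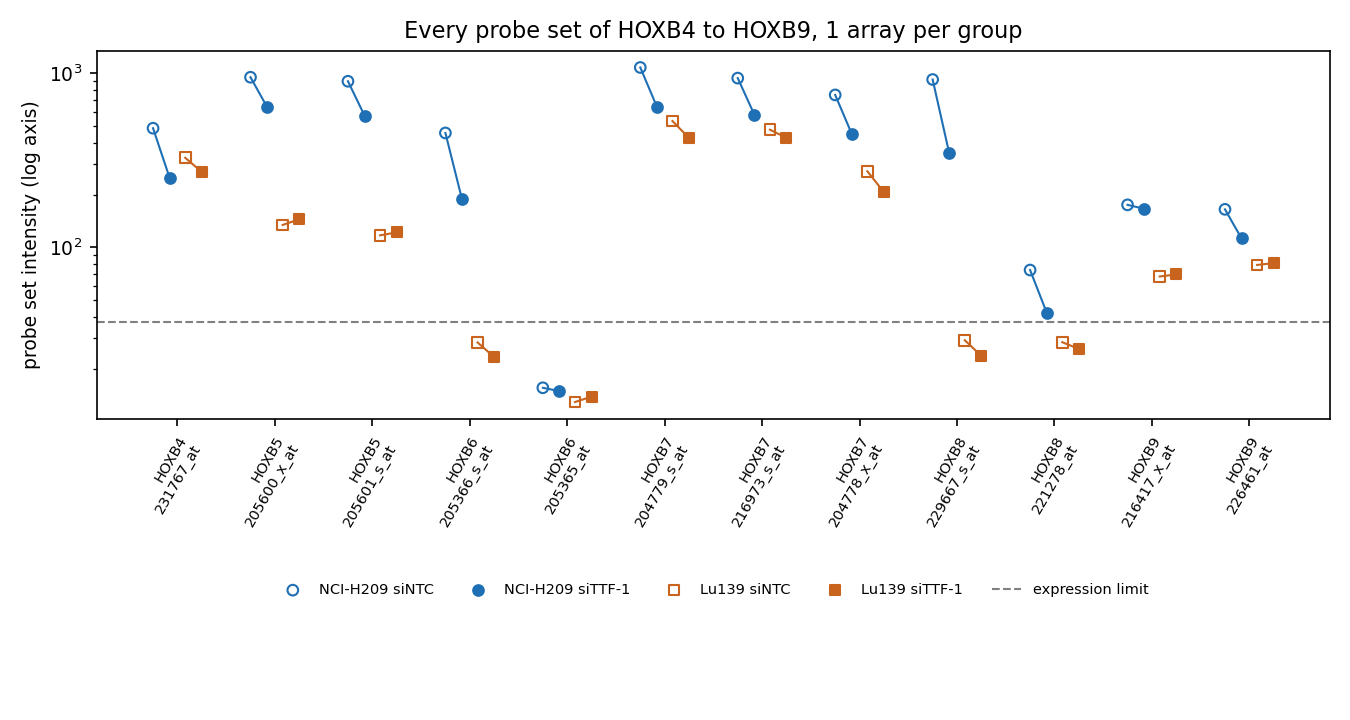
Intensity (log axis) of all 12 probe sets of HOXB4 to HOXB9, with a line from siNTC (open) to siTTF-1 (filled) in NCI-H209 (circles) and Lu139 (squares), 1 array per group, and the dashed line at the limit of 37.0. All 12 are lower after siTTF-1 in NCI-H209, against 7 in Lu139, beside 47.3% and 40.7% of all expressed genes. The stretch was picked out after its values were seen.

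HOXB4 to HOXB9, a stretch picked out after its values were seen, had a median fold change (log2) of -0.82 in NCI-H209 against -0.11 in Lu139 over the genes expressed there, 6 and 4. The plot of every probe set of HOXB4 to HOXB9 shows 12 of 12 probe sets lower in NCI-H209, of which 11 were above the limit and 8 past 1.5-fold. In Lu139 7 were lower and 5 higher, and none was past 1.5-fold. Of all expressed genes, 47.3% were lower in NCI-H209 and 40.7% in Lu139, and 3.52% and 0.936% were lower by at least 1.5-fold. The share over all probe sets was not computed. Probe sets of a gene share its transcripts and are not replicates. Those ending in _s_at or _x_at can read more than 1 transcript, which for the similar HOX homeoboxes makes the assignment to a gene uncertain. The lines differed in the size of the change for HOXB6 and HOXB8, but both were near background in Lu139. Above the limit in both lines, HOXB4 had -0.90 in NCI-H209 against -0.25 in Lu139, HOXB5 -0.55 against 0.10 and HOXB7 -0.73 against -0.31. HOXB9 had -0.07 against 0.03. Each value comes from 1 array per siRNA, and the difference between the lines was not tested.

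**Figure D3:**
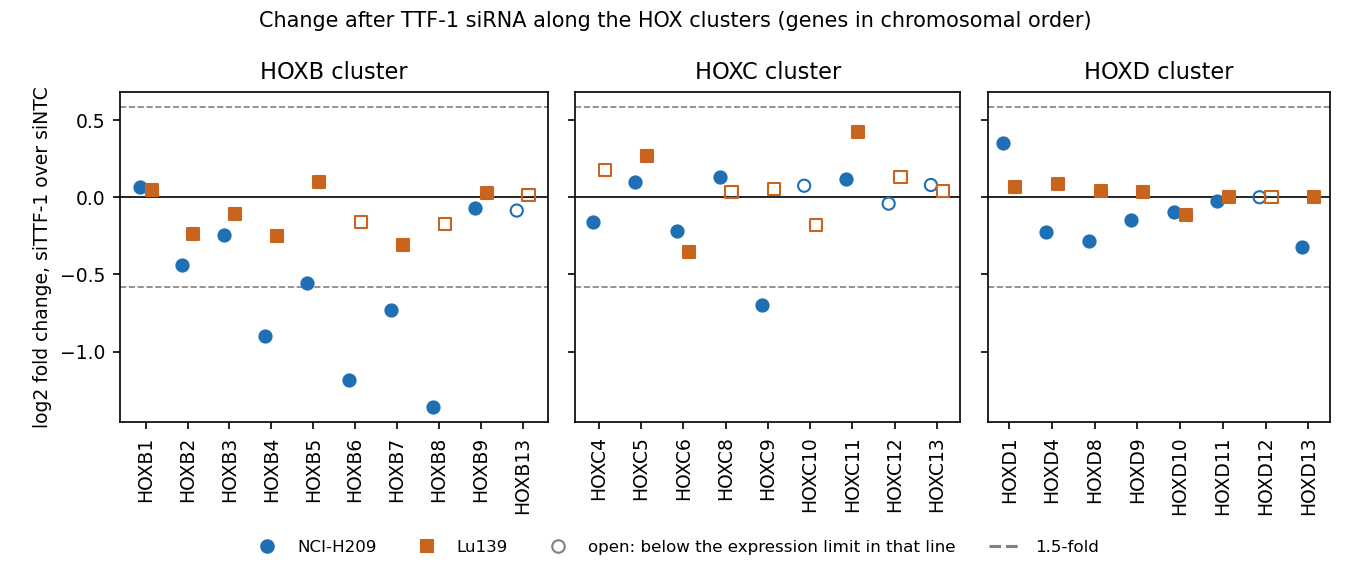
Log2 fold change (siTTF-1 over siNTC) of each measured HOXB, HOXC and HOXD gene in chromosomal order, in NCI-H209 (circles) and Lu139 (squares), with open symbols below the expression limit and dashed lines at 1.5-fold. HOXB4, HOXB6, HOXB7, HOXB8 and HOXC9 lie past the lower line in NCI-H209, no gene does in Lu139, and no HOXD gene lies past it in either line.

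In the HOXC cluster, whose genes pattern the neck, thorax and lumbar region, HOXC9 was lower past 1.5-fold in NCI-H209 and nothing was in Lu139. Of the 9 HOXC genes 6 were expressed in NCI-H209 and 3 in Lu139. HOXC9, a thoracic gene that represses limb-level motor neuron fates, had 123 and 68.9 in NCI-H209 against 18.5 and 19.96 in Lu139. The change was -0.70 in NCI-H209, 55.9% of control, and 0.05 in Lu139 between background values. HOXC6 had 700 and 599 in NCI-H209 against 48.3 and 33.6 in Lu139. Both siTTF-1 arrays were below their controls, with fold changes of -0.22 and -0.36, a mean of -0.29 ± 0.10 and a limma adjusted p of 0.247. In Lu139 HOXC6 lay near the expression limit, with its siTTF-1 array below it, so its values there are close to background. Its level was 11.3-fold higher in NCI-H209 (log2 difference -3.49, limma adjusted p = 4.47e-07), and that of HOXC9, with Lu139 below the limit, at least 2-fold.

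HOXC11, a lumbosacral gene, was the HOXC gene with the highest fold change in Lu139, with 113 and 157 there and 107 and 118 in NCI-H209. Its fold changes were 0.42 and 0.12, both under 1.5-fold, with a limma adjusted p of 0.291. HOXC4, HOXC5 and HOXC8 were dim. HOXC4 had 68.0 and 58.9 in NCI-H209 and lay at 23.1 and 28.6, below the limit, in Lu139. HOXC5 had 104 and 112, and 71.5 and 89.8. HOXC8 had 43.2 and 49.0, and 31.7 and 33.0.

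The HOXD cluster, which patterns limbs, genital tract and lower spinal cord, differed between the lines along most of its length, and after siTTF-1 none of its genes was past 1.5-fold in either line. Of the 7 tested, 5 were lower in Lu139, 1 was higher and HOXD9 did not pass, beside 20.2% lower and 5.4% higher of all genes tested. HOXD8, HOXD10 and HOXD11 had the largest differences. HOXD8 had 1665 and 1366 in NCI-H209 against 78.6 and 81.2 in Lu139, 15.5-fold higher in NCI-H209 (log2 difference -3.95, interval -4.23 to -3.67, limma adjusted p = 4.78e-07). HOXD10, a regulator of lumbar motor neurons, had 1267 and 1183 in NCI-H209 against 73.1 and 65.9 in Lu139, 14.1-fold higher (log2 difference -3.82, limma adjusted p = 3.42e-07), and all 3 of its probe sets were lower in Lu139. HOXD11, which shapes forearm and kidney, had 501 and 493, and 44.6 and 44.6, 8.15-fold higher (limma adjusted p = 6.37e-07). For each of these genes both arrays of NCI-H209 were far above both of Lu139, where the values were close to the limit.

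Both ends of the cluster were also brighter in NCI-H209, with HOXD4 as the exception. HOXD1 had 373 and 481 in NCI-H209 against 57.3 and 60.8 in Lu139, 5.7-fold higher in NCI-H209 (limma adjusted p = 2.2e-06). Its siTTF-1 array in NCI-H209 was above control, with a fold change of 0.35, against 0.06 in Lu139. HOXD13, a gene of digits and genital tract, had 296 and 233 in NCI-H209 against 78.9 on both arrays of Lu139, 2.88-fold higher in NCI-H209 (limma adjusted p = 2.17e-05). Another of its probe sets gave 196 and 144 in NCI-H209 against 55.2 and 30.8 in Lu139, a change of -0.40 and -0.58. HOXD4, a hindbrain and neck gene, had 132 and 111 in NCI-H209 against 433 and 460 in Lu139, 3.33-fold higher in Lu139 (log2 difference 1.73, limma adjusted p = 1.26e-05). Its other probe set had 75.7 and 45.4, and 211 and 187, and so the same direction between lines. HOXD9, which lies between HOXD8 and HOXD10, had 127 and 113 in NCI-H209 against 124 and 128 in Lu139, a log2 difference of 0.06 (limma interval -0.18 to 0.30).

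The promoters of HOXD8, HOXD10 and HOXD11 are shown because these genes of the cluster differed most between the lines, and that of ISL1 because it was the homeobox gene past 1.5-fold after siTTF-1 in Lu139. Each run holds the 250 bases before the RefSeq start, 5′ to 3′ on the plus strand of GRCh38.p14, in lower case with matches to the motifs searched in capitals. The motifs, read on both strands, were TNAAGTG (the core bound by NK2-class factors such as TTF-1), TAATTA (a homeodomain core pair), TGATNNAT (the joint site of PBX and HOX proteins) and TATAAA (the TATA box). HOXD8 lies at chr2:176129455-176129704, HOXD10 at chr2:176116528-176116777, HOXD11 at chr2:176107030-176107279 and ISL1 at chr5:51383198-51383447.
HOXD8: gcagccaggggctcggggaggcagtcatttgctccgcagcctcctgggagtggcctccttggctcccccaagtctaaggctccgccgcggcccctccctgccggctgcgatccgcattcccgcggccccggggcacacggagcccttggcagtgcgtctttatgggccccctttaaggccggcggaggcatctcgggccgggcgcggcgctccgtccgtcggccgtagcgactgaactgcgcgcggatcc
HOXD10: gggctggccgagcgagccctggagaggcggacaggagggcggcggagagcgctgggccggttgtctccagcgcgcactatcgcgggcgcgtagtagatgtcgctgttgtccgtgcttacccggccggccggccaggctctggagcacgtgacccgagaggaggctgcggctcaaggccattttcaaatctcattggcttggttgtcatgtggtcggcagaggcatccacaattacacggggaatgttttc
HOXD11: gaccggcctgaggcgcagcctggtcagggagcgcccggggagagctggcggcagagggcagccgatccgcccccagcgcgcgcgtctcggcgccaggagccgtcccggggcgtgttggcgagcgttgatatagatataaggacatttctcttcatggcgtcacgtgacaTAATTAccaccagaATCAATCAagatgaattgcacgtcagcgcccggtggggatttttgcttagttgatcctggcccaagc
ISL1: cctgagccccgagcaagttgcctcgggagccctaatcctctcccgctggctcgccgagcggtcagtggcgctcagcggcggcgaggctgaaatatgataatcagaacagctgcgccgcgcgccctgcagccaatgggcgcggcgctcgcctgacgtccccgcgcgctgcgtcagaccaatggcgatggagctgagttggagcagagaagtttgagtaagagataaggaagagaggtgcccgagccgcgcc
The windows were rich in G and C, at 72.4% for HOXD8, 64% for HOXD10, 61.6% for HOXD11 and 65.2% for ISL1. HOXD11 held 1 match to TAATTA and 1 to TGATNNAT, and the other windows held none of the 4 motifs. A RefSeq window was at hand for 37 of the 62 homeobox genes. HOXB2 to HOXB9, HOXC6 and HOXC9 were among those without one. The genes lower by 1.5-fold after siTTF-1 in NCI-H209 were therefore not searched. Over the 45 RefSeq windows of the 37 homeobox genes, TNAAGTG occurred in 2 (4.44%), against 8.73% of all 35116 windows. TAATTA occurred in 2 (4.44%, against 4.35%), TGATNNAT in 5 (11.1%, against 6.47%) and TATAAA in 6 (13.3%, against 10.7%). A match is a description of the letters and not a bound site, and no match says only that these letters are not in this window.

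**Figure D4:**
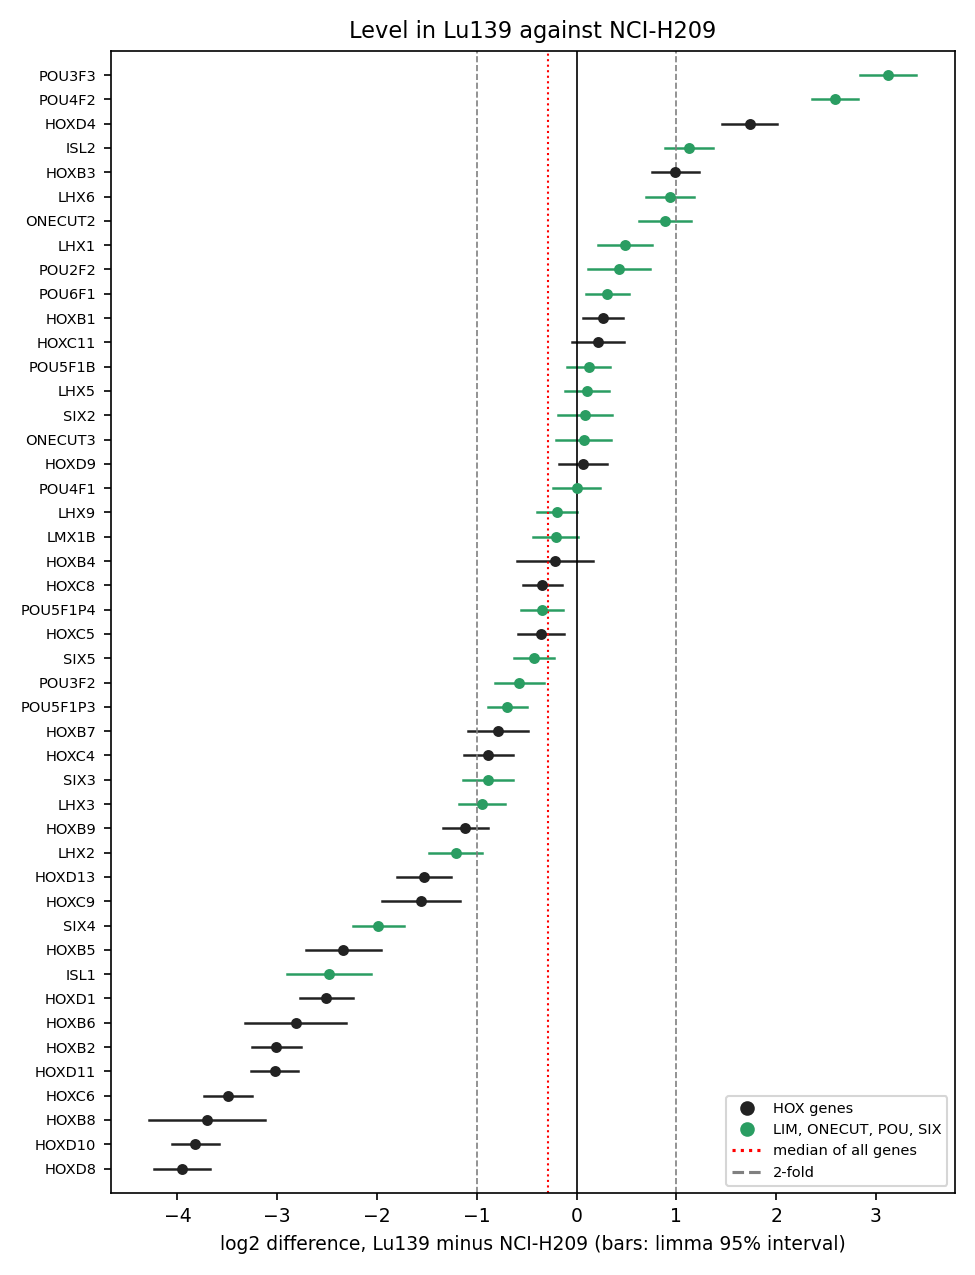
Log2 difference Lu139 minus NCI-H209 of the 46 homeobox genes tested, ordered by size, with the limma 95% interval as bars, HOX genes in black, the other families in green, dashed lines at 2-fold and a dotted line at the median of all genes tested, -0.28. HOXD8, HOXD10 and HOXC6 are among the lowest and HOXD4 among the highest. For HOXB6, HOXB8, HOXC9, POU3F3 and POU4F2 the points set the brighter line against background values, and HOXC6 lay near the limit in Lu139.

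Of the 12 LIM-homeobox genes, 10 were expressed in NCI-H209 and 8 in Lu139. ISL1, needed for motor neurons, heart progenitors and pancreatic islets, was past 1.5-fold after siTTF-1 in Lu139 and on the other side of 0 in NCI-H209. It had 3124 and 3568 in NCI-H209 against 725 and 467 in Lu139. The siTTF-1 array was above control in NCI-H209, at 114%, and below it in Lu139, at 64.4%. The log2 fold changes were 0.19 and -0.61, with a mean of -0.21 ± 0.57 and a limma adjusted p of 0.567. In Lu139 ISL1 ranked 112 of 13996 genes from the lowest. The difference between the lines was not tested. ISL1 has 1 probe set here, so no other probe set checks the value. Its level was 5.58-fold higher in NCI-H209 (log2 difference -2.48, interval -2.90 to -2.06, limma adjusted p = 1.67e-05).

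ISL2, the related motor neuron factor, had 37.4 and 39.9 in NCI-H209, at the limit, and 92.9 and 122 in Lu139, 2.19-fold higher in Lu139 (limma adjusted p = 5.06e-05). Its fold changes after siTTF-1 were 0.06 and 0.33, so in Lu139 ISL2 and ISL1 lay on opposite sides of 0, with ISL2 under 1.5-fold. LHX2, a factor of forebrain, eye and hair follicle, had 1665 and 1571 in NCI-H209 against 629 and 751 in Lu139, 2.32-fold higher in NCI-H209 (limma adjusted p = 5.84e-05). Its fold changes were -0.08 and 0.25, and its other probe set gave -0.05 and 0.27. LHX3, which specifies pituitary and motor neurons, had 49.8 and 74.7 in NCI-H209 against 20.6 and 25.01, below the limit, in Lu139. Its fold changes of 0.45 and 0.16 had a mean of 0.30 and a limma adjusted p of 0.218.

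LHX6, a factor of cortical interneurons, had 158 and 154 in NCI-H209 against 310 and 322 in Lu139. LHX1, active in kidney and spinal interneurons, had 33.3 and 37.3, and 65.1 and 49.2. LHX5 had 81.4 and 80.4, and 84.5 and 92.9. These 3 genes were within 1.5-fold after siTTF-1 in both lines. LHX4, LHX8, LHX9 and LMX1B had intensities from 6.37, for LHX8 in Lu139, to 55.2, for LMX1B in NCI-H209.

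Of the ONECUT genes, which act in liver, pancreas and neurons, none was past 1.5-fold after siTTF-1. ONECUT2 had 211 and 211 in NCI-H209 against 442 and 373 in Lu139, so the lines did not overlap, with fold changes of 0.00 and -0.23. Another of its probe sets gave 289 and 233, and 318 and 243, a change of -0.29 and -0.36. The difference between the lines was 0.88 (limma adjusted p = 2.82e-04), under 2-fold, and on the mean of its probe sets it was 0.20 (limma adjusted p = 0.0511). ONECUT3 had 68.2 and 60.03, and 60.4 and 76.5.

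The POU genes gave no change past 1.5-fold in either line. Of the 9 tested, 2, POU3F3 and POU4F2, were higher in Lu139, beside 5.4% of all genes tested. Both were above the limit in Lu139 only and so had to differ, and no excess over that share can be read from them. POU4F1, a factor of sensory neurons, was bright and close in both lines, with 937 and 741 in NCI-H209 against 890 and 783 in Lu139. Both siTTF-1 arrays were below their controls, with fold changes of -0.33 and -0.18, a mean of -0.26 ± 0.11 and a limma interval from -0.49 to -0.02 (limma adjusted p = 0.277). Its other probe set gave -0.24 and -0.12. The line difference was 0.00 (limma adjusted p = 0.984). With quantile normalization over the 4 arrays it was 0.46 (limma adjusted p = 0.00275), under 2-fold, so it depends on the scaling. POU4F2, a factor of retinal ganglion cells and a close relative of POU4F1, lay at background in NCI-H209, with 24.2 and 22.0, and had 259 and 209.3 in Lu139, at least 4.52-fold higher.

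POU3F3, a brain and kidney factor, had 7.10 and 10.3 in NCI-H209 against 243 and 198 in Lu139 on its brightest probe set. With NCI-H209 below the limit, it was at least 4.27-fold higher in Lu139. Its other two probe sets did not show this, with differences of -0.18 and -0.03 and intensities from 26.7 to 49.5. POU3F2, a factor of neuronal differentiation, had 553 and 568 in NCI-H209 against 346 and 396 in Lu139. POU2F2, the B-cell octamer factor, had 88.9 and 63.3 in NCI-H209, a change of -0.39, and 103 and 112 in Lu139. The other 5 POU2F2 probe sets above the limit did not show that change, with -0.09, -0.03, 0.01, 0.02 and 0.18 in NCI-H209. POU6F1 had 59.0 and 66.04, and 73.6 and 90.6, and POU5F2 had 35.7 and 41.9, and 37.5 and 32.9. POU5F1B, POU5F1P3 and POU5F1P4, copies of the pluripotency gene POU5F1, had intensities from 31.0 to 92.4. The copies are near-identical in sequence, so how much of each signal comes from which copy is uncertain.

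All 5 SIX-family genes were lower after siTTF-1 in NCI-H209 by less than 1.5-fold, and 2 of 4 in Lu139, beside 47.3% and 40.7% of all expressed genes. SIX4, a factor of muscle and sensory ganglia, had 2095 and 1764 in NCI-H209 against 464 and 478 in Lu139, 3.96-fold higher in NCI-H209 (log2 difference -1.99, limma adjusted p = 5.04e-06). Its fold changes were -0.25 and 0.04, and its dimmer probe set, with 99.0 and 77.3, and 14.1 and 12.8, gave -0.29 and -0.06. SIX3, which directs forebrain and eye, had 280 and 237 in NCI-H209 against 154 and 111 in Lu139. Both siTTF-1 arrays were below their controls, with fold changes of -0.22 and -0.41, a mean of -0.32 ± 0.14 and a limma adjusted p of 0.226. SIX2, a gene of kidney progenitors, had 429 and 366, and 415 and 427. SIX5 had 63.0 and 53.1, and 40.2 and 36.2. SIX6, another eye and pituitary gene, had 66.2 and 49.4 in NCI-H209, a change of -0.32, and lay at 19.1 and 22.4, below the limit, in Lu139.

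**Figure D5:**
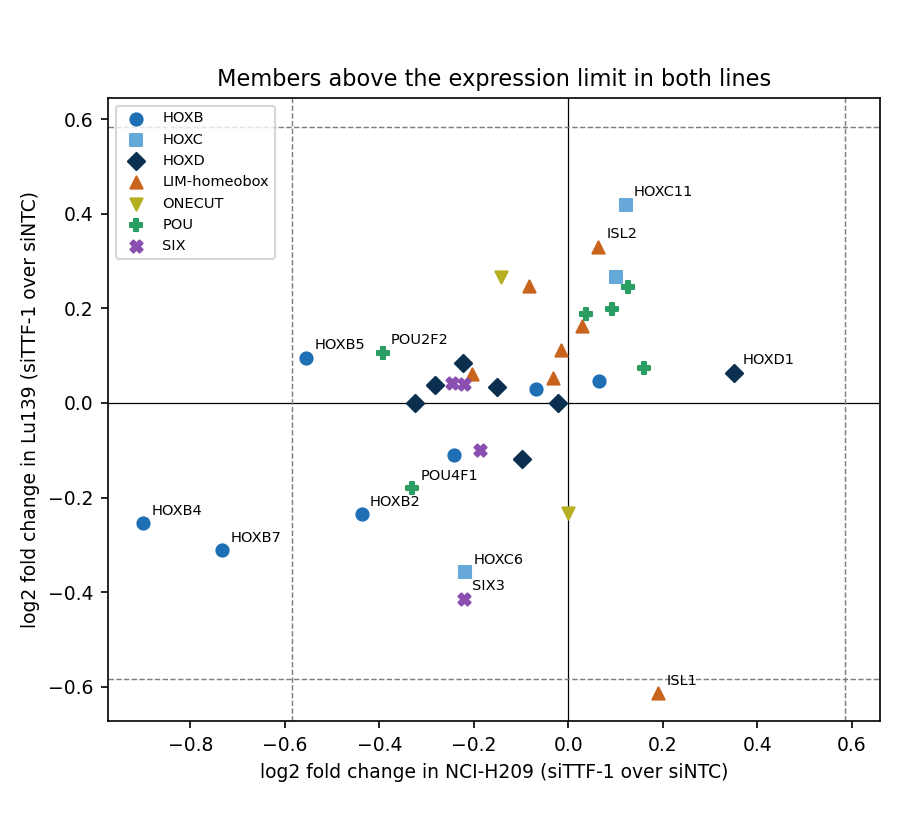
Log2 fold change (siTTF-1 over siNTC) in NCI-H209 (x axis) against Lu139 (y axis) for the 36 homeobox genes above the limit in both lines, by family, with dashed lines at 1.5-fold. HOXB4 and HOXB7 lie past the line in NCI-H209 and below 0 in both lines, ISL1 lies past it in Lu139 alone, and no gene is past it in both.

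Partner proteins of these families were taken from a list of 29 genes, of which 27 had a value, 23 were expressed in each line and 25 were tested. None was past 1.5-fold in either line, and none passed limma at an adjusted p under 0.05. At an unadjusted limma p under 0.05 3 were lower (12%, beside 9.25% of all genes) and 1 higher (4%, beside 7.23%), close to the shares of all genes. Their median fold change was 0.06 and 0.02. Of the TALE partners of HOX proteins, PBX3 had 1015 and 852 in NCI-H209 against 1153 and 1002 in Lu139, and changes of -0.25 and -0.20. PBX2, PBX4, MEIS1, MEIS2, MEIS3, PKNOX1 and PKNOX2 were expressed in both lines, and no TALE partner was called between the lines. DACH1, a SIX-family co-factor, had 95.03 and 57.2, and 71.4 and 54.4, with fold changes of -0.58 and -0.30, a mean of -0.44 ± 0.20 and a limma adjusted p of 0.143, the smallest of the list. EYA2, a SIX-family co-activator, had 1552 and 1770, and 122 and 186, with changes of 0.19 and 0.54.

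Between the lines, 5 partner genes were lower in Lu139 (20% of those tested, beside 20.2% of all genes) and 4 higher (16%, beside 5.4%). The share lower is that of all genes. Of the 9, SOX2 and POU2AF1 were above the limit in NCI-H209 only and DACH2 in Lu139 only, so these 3 had to differ and have only a bound. EYA2 was 9.87-fold higher in NCI-H209 and DACH2, of the other class of SIX-family co-factors, at least 12.6-fold higher in Lu139, where it had 675 and 686 against 30.3 and 34.03. LMO3, a LIM-only protein, had 232 and 151 in NCI-H209 against 5217 and 4821 in Lu139, 24.4-fold higher in Lu139, with changes after siTTF-1 of -0.56 and -0.11. LMO4 ran the other way, with a log2 difference of -2.17, as did LMO2 at -1.51. SSBP3 and SSBP4, which stabilise LDB1, were higher in Lu139 by 1.38 and 1.14, and LDB1 itself had 351 and 382, and 293 and 292. SOX2, a partner of POU factors, had 1233 and 846 in NCI-H209 against 29.6 on both arrays of Lu139, at least 18.7-fold higher in NCI-H209. POU2AF1, the B-cell co-activator of POU2F2, had 131 and 92.1 in NCI-H209 and lay at background, 6.36 and 7.36, in Lu139, so it was at least 2.31-fold higher in NCI-H209. GMNN, which binds HOX and SIX-family proteins, had 5291 and 4771, and 2639 and 2607, a log2 difference of -0.93, under 2-fold on that scale.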

How the data were processed

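Total RNA of the siNTC and siTTF-1 cells of NCI-H209 and Lu139 was labelled with biotin and hybridised to 4 arrays, 1 per group, per the labels' protocols. The authors deposited linear intensities per probe set. The submitters' processing notes name Affymetrix Expression Console. Its version, the normalization and the build were not given in the sources used here. Exactly equal intensities on both arrays of a line occurred for 2416 probe sets in NCI-H209 and 2206 in Lu139, against 0 between lines.

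Of 54675 probe sets, 62 were controls, 41091 had 1 gene symbol in the platform's annotation, 1801 several and 11721 none. Gene identifiers gave current symbols through a RefSeq table of GRCh38.p14 (41037 matched). Each gene took the value of its brightest probe set by mean log2 value. Expression was log2(value + 18.7), the pseudocount being the 25th percentile of all values. The limit was the 40th percentile of the mean over probe sets, 5.80 on that scale. Limma 3.58.1 (R 4.3.3; lmFit, eBayes with a trend) fitted line and siRNA, with 1 residual and 5.91 prior degrees of freedom. The line is the block, which pairs the arrays, since a line supplied both of its arrays. Tests were two-sided, with Benjamini-Hochberg adjustment over all genes tested. The fit was also run on simulated arrays with independent noise and the same siRNA effect in both lines. Such arrays cannot check effects that differ between lines or arrays that are not independent. Plots used matplotlib 3.10.9 under Python 3.11.15.

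Every homeobox gene above the limit in a line was named. Full values were given for those past 1.5-fold after siTTF-1, those called between lines, the brightest of each family and the 5 with the smallest limma p; other values were added as description. The genes and lists were chosen with earlier results of these data known. Sequences are RefSeq's. Probe sets with several symbols, and those with none, were left out of gene values.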

Additional observations from a re-analysis of the deposited data

Results flagged for a closer look

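After siTTF-1, 2 of the genes given in full had fold changes of opposite sign in the lines, past 1.5-fold in 1 of them. For HOXC9 the change (log2) was -0.70 in NCI-H209, while it was 0.055 in Lu139, where both of its arrays lay below the expression limit. ISL1 had 0.19 in NCI-H209, opposed to -0.61 in Lu139, and was bright in both lines. Each line has 1 array per siRNA, and the difference between the lines was not tested for either gene.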

How the results depend on the processing

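The limma count of all genes across lines, 0 lower and 0 higher, became 32 and 6 with the limit at the 60th percentile, 93 and 32 with quantile normalization over the 4 arrays and 33 and 8 with quantile normalization within each line. No homeobox gene was called in any of these. The 47 and 39 homeobox genes expressed in NCI-H209 and Lu139 became 28 and 23 at the 60th percentile, and 76 and 66 with every probe set its own entry. The 5 lower by 1.5-fold in NCI-H209 became 9 with every probe set counted, and 2 at a threshold of 2-fold, where the 1 in Lu139 became 0. The 15 lower and 4 higher in Lu139 became 25 and 11 with no limit on the size of the difference, and the 4 became 2 at the 60th percentile and 7 with quantile normalization over the 4 arrays. Partner genes lower in NCI-H209 numbered 2 with the pseudocount halved and 1 with quantile normalization within each line, and 1 was higher in Lu139 with quantile normalization over the 4 arrays, against 0 each otherwise. Partner genes lower and higher between lines, 5 and 4, became 3 and 2 on averaged probe sets and 8 and 8 with every probe set counted, and the higher became 9 with no limit on the difference. With quantile normalization over the 4 arrays, the line difference of HOXB4 turned to 0.23 and the mean fold change of HOXB9 to 0.00015. On averaged probe sets, the line difference of POU4F1 turned to -0.070. The cause was not tested for any of these. The fold change of HOXB8 in NCI-H209 ran from -1.38 to -0.98 over the settings, that of HOXB6 from -1.22 to -0.61, that of HOXB4 from -0.92 to -0.83 and that of HOXB7 from -0.74 to -0.69. The limma adjusted p of HOXB7 ran from 0.0982 to 1. The limma fit with line as a term pairs the arrays of a line. Without the line term 0 genes were called as well, and the mean fold changes were the same, with limma adjusted p of 1 for HOXB7. Leaving out an array would leave a line without its siTTF-1 or siNTC value, so that was not run. Signal near background limits the values of HOXB6, HOXB8, HOXC6 and HOXC9 in Lu139.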

Other observations

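Of 16 non-coding transcripts of the HOX clusters and SIX3, 11 had a value, 10 were above the limit in NCI-H209 and 7 in Lu139. HOXB-AS3, transcribed antisense within the HOXB cluster, had 158 and 95.8 in NCI-H209 against 33.1 and 47.8 in Lu139 on its brightest probe set, with log2 fold changes of -0.63 and 0.36. Another of its probe sets had 156 and 79.6 in NCI-H209, a change of -0.83, and 6.92 and 7.56 in Lu139. HOXB-AS1 had 120 and 100 in NCI-H209 against 49.1 and 47.8 in Lu139, with changes of -0.22 and -0.03. HAGLR, of the HOXD cluster, had 695 and 503 in NCI-H209, a change of -0.45, and 49.9 and 47.4 in Lu139, so it was lower in Lu139 by a log2 difference of -3.18. HOXD-AS2 had 459 and 519, and 165 and 187, a change of 0.17 in each line. HOTAIR, of the HOXC cluster, lay at background on all 4 arrays, from 3.90 to 6.36. Whether these probe sets overlap coding transcripts was not analysed here.

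A probe set with the symbols of both HOXD3 and HOXD4, kept out of gene values for that reason, had 142 and 107 in NCI-H209 against 170 and 157 in Lu139.

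The tuft-like marker POU2F3, a POU gene outside the set followed, lay between 8.42 and 10.8 on the 4 arrays. Of the 5 tuft-like markers, 3 were above the limit in NCI-H209 and 2 in Lu139. SOX9 had 176 and 227 in NCI-H209 against 157 and 182 in Lu139, and GFI1B 67.7 and 77.0 against 60.9 and 71.1. ASCL2 was above the limit in NCI-H209 only, and TRPM5 in neither line. Of the non-neuroendocrine markers, YAP1 lay between 12.7 and 22.7 and AXL between 21.0 and 30.8, while REST, HES1 and VIM were above the limit in both lines.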
